A study of Rattus norvegicus with 40 samples.

Results

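Soleus muscle and fat of SHR-Tti2+/- rats were compared with the same tissues of wild-type littermates, to ask whether the loss of 1 copy of Tti2 changed transcript levels differently in the 2 tissues. All 20 libraries labelled soleus muscle or peritoneal fat were used, of 40 in the series, with 5 per tissue and genotype. By the rat numbers in the labels they came from 12 rats, of which 8, 4 of each genotype, gave both tissues. In each genotype 1 further rat gave only fat and 1 only muscle. Every rat was of the strain SHR/OlaIpcv, an inbred line with spontaneous hypertension. The heterozygotes belonged to a single line in which a zinc finger nuclease had left a frame-shift deletion in the first exon of Tti2, and they carried it in every tissue. No agent was given according to the labels, which state no age. The labels name the depot peritoneal and the methods perirenal, and it is called fat here. Heterozygous is written het and wild type wt where space is short.

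Tti2 belongs, with Telo2 and Tti1, to the TTT complex, a co-chaperone that helps kinases of the phosphatidylinositol 3-kinase-related family to fold and assemble. Among these kinases are mTOR, which links nutrient and insulin signals to growth, ATM and ATR, which respond to DNA damage, and SMG1, which acts in the decay of faulty mRNA. Soleus is a postural muscle of mainly slow, oxidative fibres that takes up glucose in response to insulin, and visceral fat stores triglycerides and releases fatty acids. Both tissues serve glucose homeostasis, with different sets of expressed genes.

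The deposited tables list transcripts by Ensembl ID and do not pair them with gene names, so Tti2 itself could not be looked up and no pathway or cell-type list could be applied. The 20 libraries held between 22416531 and 27426073 estimated counts, and the transcripts tested for both tissues took from 96.5 to 99.4% of them. In fat the totals were lower in the heterozygotes, with a median of 23564264 against 26259944 (two-sided exact permutation test over 252 assignments, p = 0.048). In muscle the medians were 24791661 and 25146678 (exact p = 0.73). Wild-type muscle libraries lay farther from the other muscle libraries on the first 2 principal components, at a mean distance of 55.7 to 87.9 log2 CPM units (median 79.7), than heterozygous ones, at 49.2 to 61.4 (median 56.1; exact p = 0.032). Over the 10 comparisons of library measures between the genotypes, the totals in fat and the distances in muscle both had an adjusted p of 0.238 by this exact test. Each library correlated with the mean of the other libraries of its labelled tissue at r = 0.957 or above, across transcripts, and with the mean of the other tissue at r = 0.721 or below. Marker genes could not be read, so the tissue labels were checked only in this way.

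The difference between the tissues was tested as an interaction. The het minus wt difference in muscle was set against the het minus wt difference in fat, on the log2 scale, so that a positive value means a more positive difference in muscle. Each rat had its own term in the fit, and the interaction was therefore estimated within the 8 rats with both tissues. The test covered 17350 transcripts that reached 5 estimated counts in 5 or more of the 10 libraries of each tissue. Of these, 0 (0%) were called at a Benjamini-Hochberg adjusted p under 0.1 by edgeR's quasi-likelihood test. The smallest adjusted p was 0.728 by that test. An unadjusted p under 0.05 was reached by 765 transcripts (4.41%), where an even spread of p-values gives 868. Of these, 468 (2.7%) had a more positive and 297 (1.71%) a more negative difference in muscle. Without the rat term, 0 transcripts were called as well, the smallest adjusted p by edgeR was 0.427, and 1121 (6.46%) had an unadjusted p under 0.05. Both fits placed 459 transcripts under 0.05. DESeq2's Wald test with the rat term called 23 (0.133%), 14 with a more positive and 9 with a more negative difference in muscle.

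**Figure D1:**
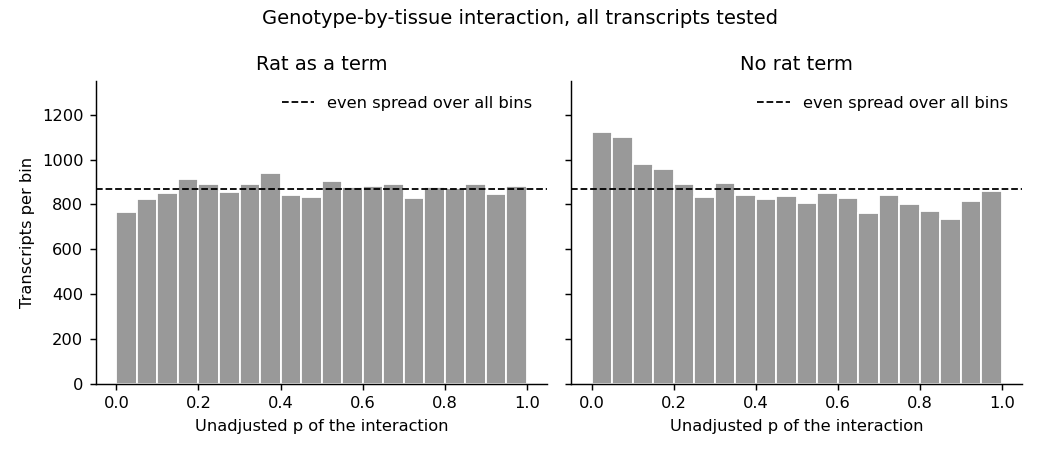
Number of transcripts (vertical axis) in each of 20 bins of the unadjusted interaction p (horizontal axis), for edgeR's fit with rat as a term (left) and without it (right), over 17350 transcripts. The dashed line is an even spread of 868 per bin: the first bin holds 765 transcripts on the left and 1121 on the right.

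Among the 765 transcripts, 380 had a positive difference in muscle and a negative one in fat, and 240 the opposite. A further 78 were positive in both tissues and 67 negative in both. Few of them passed the unadjusted threshold in both tissues taken singly, namely 30. In muscle alone or with fat 278 did so, in fat alone or with muscle 172, and in neither tissue 345. The median interaction over all tested transcripts was 0.010 on the log2 scale, beside medians of -0.0048 in muscle and -0.0072 in fat. The absolute difference between genotypes had a median of 0.12 in muscle and 0.088 in fat, on the log2 scale. The spread between rats was also wider in muscle: the median SD of log2 CPM (counts scaled to library size) within a group was 0.24 in wild-type and 0.21 in heterozygous muscle, against 0.17 and 0.16 in fat.

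The precision of the fit set how small an interaction could be seen. With the rat term, the standard error (SE) of the interaction had a median of 0.22 on the log2 scale. Without the rat term the median was 0.20. The genotype difference had a median SE of 0.15 in muscle and 0.11 in fat. The 95% interval of the interaction lay within a 2-fold difference either way for 11186 transcripts, 64.5% of those tested. Without the rat term this held for 12070 transcripts (69.6%). With the rat term, the remaining transcripts could differ between the tissues by more than 2-fold within their intervals. The precision followed the expression level. In the tercile of lowest expression the interval reached a median of 1.24 on either side of the estimate, in the middle tercile 0.44 and in the highest tercile 0.25, all on the log2 scale.

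**Figure D2:**
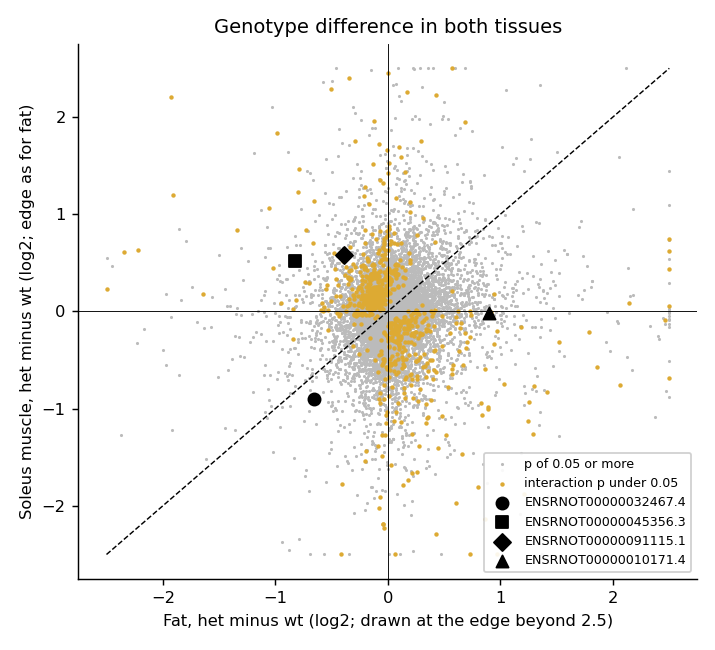
Het minus wt difference of each of 17350 transcripts in fat (horizontal axis, log2) and soleus muscle (vertical axis, log2), with the dashed line marking equal differences. Yellow points are the 765 transcripts with an unadjusted interaction p under 0.05, black symbols the 4 transcripts described below by ID, and 43 points beyond 2.5 on either axis are drawn at the edge.

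By the rat numbers in the labels, the libraries of both tissues came largely from the same rats. The 2 sets of differences may therefore not be independent, although deviations from the group means correlated within rats at only -0.0077 to 0.021. Across the 17350 transcripts, which are not independent replicates, the differences in muscle and fat had a Pearson r of 0.073 and a Spearman rho of 0.11. All 5 heterozygous rats lay outside the range of all 5 wild-type rats for 219 of the transcripts in muscle and 261 in fat. In muscle 127 (0.732%) were above and 92 (0.53%) below, and in fat 95 (0.548%) were above and 166 (0.957%) below. The number that separated in both tissues was 1 lower in both, 2 higher in both, 1 higher in muscle and lower in fat, and 0 lower in muscle and higher in fat.

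ENSRNOT00000032467.4, 1923 bases long, was the transcript lower in both, and it was known from earlier results of these data to be lower in heterozygotes. The deposited data do not name its gene. The paper reported lower Tti2 mRNA in the heterozygotes in every tissue it sequenced, muscle and fat among them. Whether this transcript is that of Tti2 could not be checked by name. In wild-type muscle it stood at 10.1, 9.80, 10.6, 9.27 and 10.02 TPM (a level scaled for transcript length and library size) in rats 2 to 6. In heterozygous muscle it stood at 4.98, 5.10, 5.28, 5.40 and 5.01 TPM in rats 2 to 6. The genotypes did not overlap in muscle, and the 5 heterozygotes were within a narrow range.

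In wild-type fat ENSRNOT00000032467.4 stood at 11.1, 10.3, 10.4, 8.73 and 11.04 TPM in rats 1 to 5. In heterozygous fat it stood at 6.04, 6.33, 7.43, 7.48 and 5.94 TPM in rats 1 to 5. Again the genotypes did not overlap, with heterozygous rats 3 and 4 nearest to the wild type. The mean level was 9.97 ± 0.49 TPM in wild-type and 5.16 ± 0.18 in heterozygous muscle, and 10.3 ± 0.95 TPM in wild-type and 6.64 ± 0.75 in heterozygous fat (SD, n = 5 each).

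The transcript fell in muscle by 0.90 on the log2 scale (SE 0.072, adjusted p = 0.00181), to 53.4% of the wild-type level, and it was the 1 transcript called of 18120 in that tissue (0.00552%), where 1239 (6.84%) had an unadjusted p under 0.05 and DESeq2 called 33 (0.182%). In fat the difference was -0.66 (SE 0.088), or 63.4% of the wild-type level, with an adjusted p of 0.338 by edgeR's test, which called 0 of 20221 transcripts and placed 1407 (6.96%) under an unadjusted p of 0.05. DESeq2 called it in fat too (adjusted p = 6.25e-07), among 24 transcripts (0.119%). The difference was larger in muscle than in fat by 0.28 on the log2 scale (interaction -0.28, SE 0.15, 95% interval -0.62 to 0.057), with an adjusted p of 0.998. A drop of the same size in both tissues and one up to 0.62 log2 units deeper in muscle both lie within that interval.

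Within single rats the comparison rested on the muscle minus fat difference in log2 CPM, normalized over both tissues. That normalization adds about the same constant to every rat. The values therefore compare rats and do not give the level in muscle relative to fat. For ENSRNOT00000032467.4 the muscle minus fat difference was 1.42, 1.32, 1.57 and 0.99 in wild-type rats 2 to 5. It was 1.05, 0.89, 0.97 and 1.26 in heterozygous rats 2 to 5. Wild-type rat 5 fell among the heterozygotes. The means were 1.33 ± 0.24 and 1.04 ± 0.16 (SD, n = 4 each; two-sided exact permutation test over 70 assignments, p = 0.086, where the smallest p the design allows is 0.029).

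Over all tested transcripts, the within-rat difference separated the 4 heterozygous from the 4 wild-type rats for 548 (3.16%), 342 with heterozygotes above (1.97%) and 206 with heterozygotes below (1.19%). The 3 transcripts named next were picked for the smallest interaction p by edgeR's fit, 2 with a positive and 1 with a negative interaction. Because of that choice, their separation is not separate evidence of a difference. None passed the adjusted threshold by edgeR, while all 3 passed it by DESeq2 with the rat term.

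**Figure D3:**
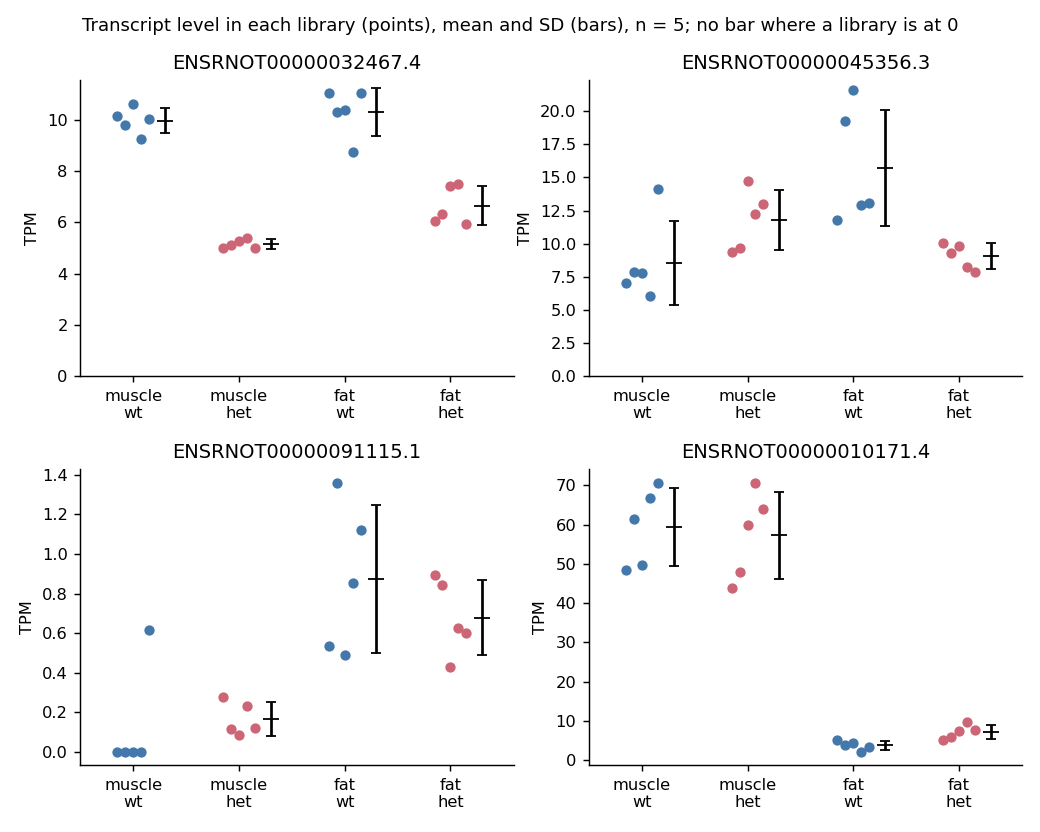
Level in TPM (vertical axes) of the 4 named transcripts in each library of wild-type (blue) and heterozygous (red) muscle and fat; bars are the mean and SD of 5 libraries and are left out where a library is at 0. ENSRNOT00000032467.4 is lower in the heterozygotes of both tissues without overlap, whereas ENSRNOT00000045356.3 differs in opposite directions.

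ENSRNOT00000045356.3, 2625 bases long, had the smallest interaction p of all. In wild-type muscle it stood at 7.0, 7.88, 7.77, 6.07 and 14.1 TPM in rats 2 to 6, and in heterozygous muscle at 9.40, 9.66, 14.7, 12.3 and 13.0 TPM in rats 2 to 6. Wild-type rat 6, which gave no fat, was among the heterozygotes, while the other 4 wild-type rats were below all of them. In wild-type fat it stood at 11.8, 19.3, 21.6, 12.9 and 13.1 TPM in rats 1 to 5, and in heterozygous fat at 10.05, 9.26, 9.85, 8.25 and 7.86 TPM in rats 1 to 5. Every heterozygous fat library was below every wild-type one.

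The muscle difference of ENSRNOT00000045356.3 was 0.52 (SE 0.22, adjusted p = 0.715) and the fat difference -0.82 (SE 0.17, adjusted p = 0.669), on the log2 scale. Their interaction was 1.64 (SE 0.23, 95% interval 1.11 to 2.17), with an adjusted p of 0.728 by edgeR and of 2.27e-06 by DESeq2. Without the rat term it was 1.35 (SE 0.29, adjusted p = 0.427). The muscle minus fat difference in log2 CPM was -0.079, -0.10, 0.50 and 0.11 in wild-type rats 2 to 5. It was 1.38, 1.35, 2.25 and 1.97 in heterozygous rats 2 to 5. In the liver of the same series the transcript lay between 2.87 and 5.75 TPM in wild-type and between 1.04 and 2.41 TPM in heterozygous rats, so that the genotypes did not overlap there. In the hippocampus the genotypes overlapped, with 13.0 to 25.8 TPM in wild-type and 18.7 to 20.7 TPM in heterozygous rats. The means there were 22.3 ± 5.4 and 19.4 ± 0.79 TPM (SD, n = 5 each), and only the lowest wild-type library was below any heterozygote. The paper left out an outlier hippocampus sample, whereas all libraries were read here.

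ENSRNOT00000010171.4, 2484 bases long, had the smallest p among the negative interactions, and it was far more abundant in muscle. In muscle it lay between 48.5 and 70.7 TPM in wild-type and between 44.0 and 70.6 TPM in heterozygous rats, and the genotypes overlapped over nearly the whole range. In wild-type fat it stood at 5.10, 4.01, 4.51, 2.13 and 3.45 TPM in rats 1 to 5. In heterozygous fat it stood at 5.15, 5.84, 7.34, 9.73 and 7.83 TPM in rats 1 to 5. The lowest heterozygote was just above the highest wild-type rat.

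The interaction of ENSRNOT00000010171.4 was -1.11 (SE 0.18, 95% interval -1.54 to -0.69, adjusted p = 0.728 by edgeR), from a muscle difference of -0.013 (SE 0.14) and a fat difference of 0.89 (SE 0.23) on the log2 scale. By DESeq2 its adjusted p was 0.000104. Its highest fat value came from heterozygous rat 4, whose fat library held the most transcripts typical of muscle. Without that library the interaction was -1.05 (SE 0.20). Without the rat term, over all libraries, it was -0.90 (SE 0.27, adjusted p = 0.692 by edgeR). The muscle minus fat difference in log2 CPM was between 5.09 and 5.88 in the 4 wild-type rats and between 4.13 and 4.62 in the 4 heterozygous rats.

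**Figure D4:**
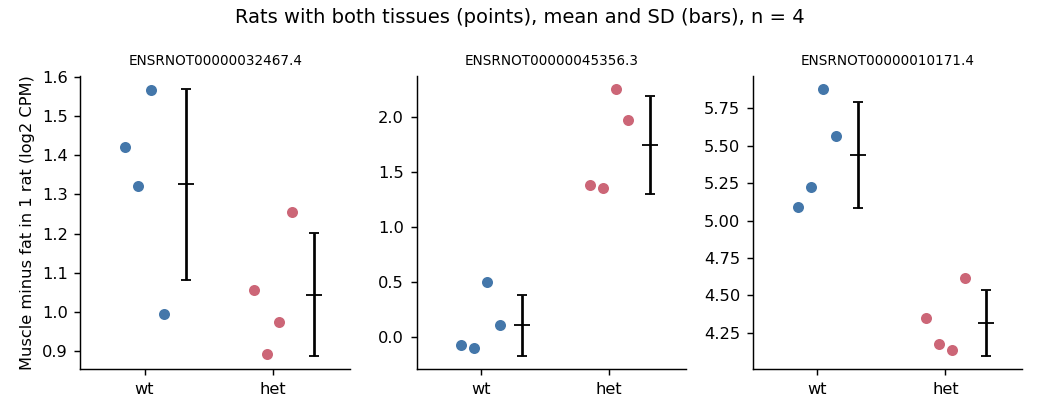
Muscle minus fat difference in log2 CPM (vertical axes, each with its own range) within each of the 8 rats with both tissues, for the 3 named transcripts with no library at 0; bars are the mean and SD of 4 rats. The genotypes overlap for ENSRNOT00000032467.4, where wild-type rat 5 is at 0.99, and are apart for the other 2, which were picked for their small interaction p. The values compare rats and do not give the level in muscle relative to fat.

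ENSRNOT00000091115.1, 5088 bases long, had the next smallest p among the positive interactions. It had 0 estimated counts in the muscle of wild-type rats 2 to 5, where 3 counts would correspond to 0.109 to 0.128 CPM, and 47.0 in that of wild-type rat 6. The heterozygous muscle libraries held 21.6, 9.72, 7.14, 18.6 and 9.73 estimated counts in rats 2 to 6. In fat it was present in every library, from 38.5 to 107 counts in wild-type and from 30.2 to 59.8 in heterozygous rats. Rat 6 gave no fat, so the fit with the rat term took nothing from the 1 wild-type muscle library that held the transcript. With that library in use, in the fit without the rat term, the unadjusted interaction p was 0.44. Given the zeros, no fold is stated. Reads shared by isoforms are divided between them by the quantification software, and the part of this in the zeros was not tested.

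The 23 transcripts called by DESeq2 included all 3 transcripts picked for their small p, and 22 of them had an edgeR p under 0.05 with the rat term. Of the 23, 13 had a positive difference in muscle and a negative one in fat, 6 the opposite, 3 were positive and 1 negative in both. A library with 3 counts or fewer was present for 11 of them, whereas 15.2% of all tested transcripts had one. The other 12 had interactions between 0.39 and 4.51 log2 units in size.

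The transcripts that separated the genotypes in both tissues are few enough to describe, and they were chosen after their values were seen. The 1 with opposite directions stood between 65.9 and 75.7 TPM in wild-type and between 73.4 and 80.5 in heterozygous muscle. In fat it lay between 61.9 and 65.6 TPM in wild-type and between 57.9 and 61.6 in heterozygous rats. The ranges are apart after TMM normalization and overlap in muscle on the TPM scale. Its interaction was 0.31 on the log2 scale (SE 0.082, adjusted p = 0.998 by edgeR). The 2 that were higher in both tissues had small differences, of 0.29 and 0.39 in muscle and 0.21 and 0.34 in fat on the log2 scale, with interactions of 0.069 and 0.031.

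Transcripts were then grouped by where they are expressed. Of those tested, 806 were at least 8-fold higher in muscle, 711 at least 8-fold higher in fat and 8844 within 2-fold, by the mean log2 CPM of both genotypes. The class sizes depend on the TMM normalization over both tissues. By CPM of the library total, 451 transcripts were at least 8-fold higher in muscle and 2327 in fat. In the muscle-high class 46 transcripts (5.71%, exact Clopper-Pearson 95% interval 4.21 to 7.54%) had an unadjusted interaction p under 0.05, 21 of them with a more positive difference in muscle. In the fat-high class 35 (4.92%, interval 3.45 to 6.78%) did, 13 of them more positive. Among transcripts within 2-fold of each other, 337 (3.81%, interval 3.42 to 4.23%) did, 216 of them more positive. The share over all tested transcripts was 4.41%. It lies within the intervals of the muscle-high and fat-high classes and above that of the transcripts within 2-fold. The intervals cover counting error only and treat transcripts as independent.

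By expression level, 3.30% of the lowest, 4.41% of the middle and 5.52% of the highest tercile had an interaction p under 0.05. In the highest tercile 230 were more positive and 89 more negative in muscle, and in the lowest tercile 89 and 102. The median fat difference was 0.034 in the lowest and -0.023 in the highest tercile on the log2 scale, and the median muscle difference -0.0054 and -0.0056. By transcript length the share was 3.42% in the shortest, 4.86% in the middle and 4.94% in the longest tercile.

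Of these 3 tissue classes, the fat-high class had the largest median shift. In muscle its median difference was -0.15 on the log2 scale, beside -0.0048 over all tested transcripts. A negative difference in muscle was found for 457 of its 711 members (64.3%), against 51.2% of all tested transcripts. With a 32-fold limit, which left 151 transcripts, the median was -0.38. In fat its median difference was 0.0050. The shift followed 2 libraries. The median deviation of these transcripts from their mean over the muscle libraries was 0.59 in wild-type rat 5 and 0.47 in wild-type rat 6, and between -0.19 and 0.20 in the other 8. Without those libraries, which were left out for this very excess, the median difference in muscle was 0.13. More cells of another type and more RNA per such cell cannot be told apart in bulk tissue.

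In the muscle-high class the median difference was 0.026 in muscle and 0.047 in fat. In fat heterozygous rat 4 had the highest median deviation of the class, 0.13, while the other 9 fat libraries were between -0.040 and 0.053. Without that library the median difference in fat was -0.013.

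**Figure D5:**
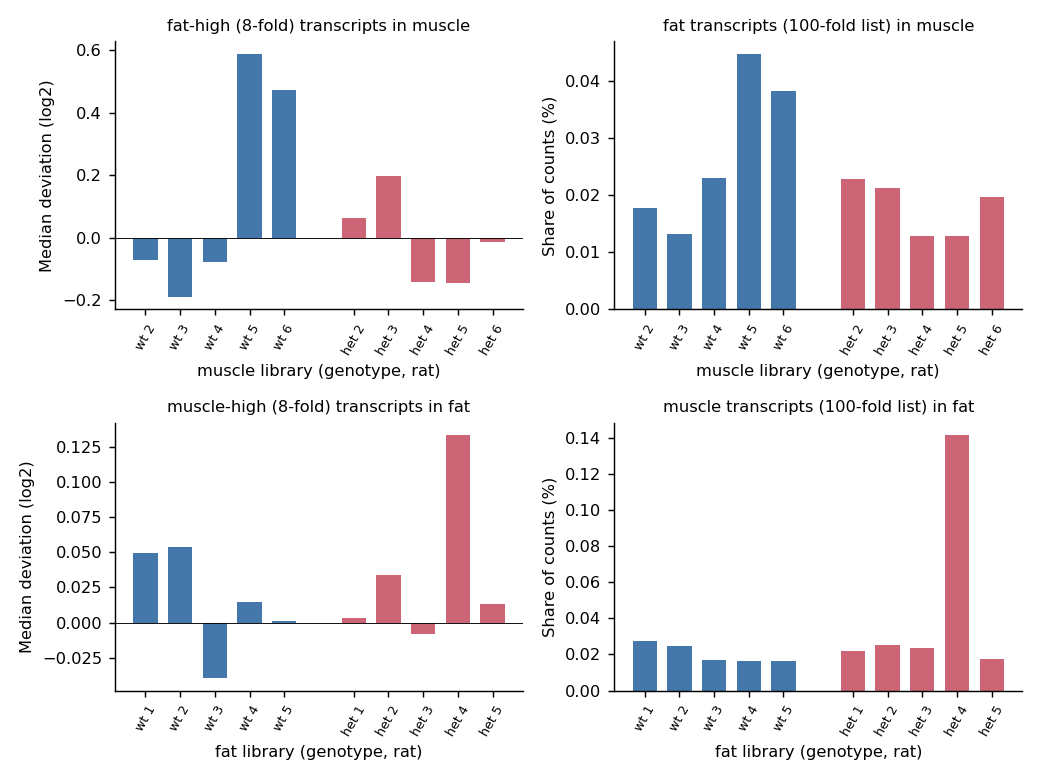
Left, median deviation (log2) of the transcripts at least 8-fold higher in the other tissue, from their mean over the 10 libraries of a tissue; right, share of counts in transcripts at least 100-fold higher in the other tissue (wild type). Bars are single libraries of wild-type (blue) and heterozygous (red) rats. Muscle of wild-type rats 5 and 6 and fat of heterozygous rat 4 are the highest in their tissues.

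The same libraries stood out by shares of counts. Transcripts at least 100-fold higher in wild-type fat than in wild-type muscle, 325 in number, took from 0.0131 to 0.0447% of the counts of wild-type and from 0.0129 to 0.0228% of those of heterozygous muscle, against 6.42 to 7.51% in wild-type fat. The list was at 0 in all muscle libraries for 51 of its members. Transcripts at least 100-fold higher in wild-type muscle than in wild-type fat, 381 in number, took from 0.0163 to 0.0277% of wild-type fat counts. In heterozygous fat they took 0.141% in rat 4 and at most 0.0251% in the other 4 libraries, against 37.7 to 40.8% in wild-type muscle, and 52 of them were at 0 in all fat libraries.

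In fat, liver transcripts took from 0.0276 to 0.0946% of the counts (median 0.0366%) in wild-type and from 0.0330 to 0.134% (median 0.0577%) in heterozygous rats. Hippocampal transcripts took from 0.0285 to 0.0317% of fat counts (median 0.0298%) in wild-type and from 0.0316 to 0.0372% (median 0.0363%) in heterozygous rats, ranges that touched only through heterozygous rat 5. In muscle, liver transcripts had medians of 0.0226% in wild-type and 0.0236% in heterozygous rats, and hippocampal transcripts 0.0393% and 0.0482%, with overlapping ranges. Muscle of wild-type rats 5 and 6, the libraries richest in fat transcripts, was also highest for both of these lists. Liver transcripts took 0.0309 and 0.0283% there, and at most 0.0247% in other muscle libraries. Hippocampal transcripts took 0.0591 and 0.0529%, and at most 0.0527% elsewhere in muscle. Without the 3 libraries richest in transcripts of the other tissue, edgeR's fit with the rat term again called 0 interactions, with 651 at an unadjusted p under 0.05, and the fit without it called 2, both with a positive interaction. The interaction of ENSRNOT00000032467.4 was then -0.38 (SE 0.15), that of ENSRNOT00000045356.3 1.46 (SE 0.24) and that of ENSRNOT00000010171.4 -1.01 (SE 0.23) with the rat term. Without the rat term they were -0.29 (SE 0.11), 1.43 (SE 0.27) and -0.68 (SE 0.29), the last of which compares with -1.11 in the fit with the rat term on all libraries. The part of these transcripts in the other results was not tested.

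Transcripts that leaned one way in a tissue were also read in the other. The 154 transcripts with an unadjusted p under 0.01 and a positive difference in muscle had a median difference of 0.44 there and of 0.087 in fat, where 102 were positive. The 94 with a negative difference had medians of -0.44 in muscle and -0.041 in fat, where 64 were negative. Starting from fat, the 145 transcripts with a positive difference had a median of 0.44 in fat and of 0.062 in muscle, and the 118 with a negative difference -0.26 and -0.049. The median over all transcripts was -0.0072 in fat and -0.0048 in muscle. Of all 17350 tested, 8243 (47.5%) were positive and 9107 negative in fat. The libraries of both tissues came largely from the same rats, and the part of this in the shared signs was not tested. Deviations from the group means correlated between muscle and fat of the same rat at -0.0077 to 0.021. Between different rats of a genotype they correlated at -0.048 to 0.046. The sets were picked after the values were seen, and the comparison is a description without a test.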

How the data were processed

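Poly-A selected, strand-specific, single-end libraries were quantified by the authors with kallisto on Ensembl cDNA; the submitters' notes name kallisto 0.46.0 and build rn6. The deposited tables give, per transcript, length, effective length, the estimated count (an expected count) and TPM as scaled by the authors' software. Estimated counts were rounded and tested in R 4.3.3 with edgeR 4.0.16 (TMM, quasi-likelihood F-test, legacy mode). The interaction was fitted with rat, tissue and genotype within tissue as terms; each tissue was also fitted alone on genotype, with calls at an adjusted p under 0.1 and, there, 1.5-fold. The SE is the log2 difference over the root of F. DESeq2 1.42.0 and limma 3.58.1 were alternatives. The edgeR fits, with and without the rat term and within each tissue, were tested on simulated data; the alternatives by other tools were not. Values of log2 CPM add a prior count of 1 on the log2 scale.

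Rat numbers in the labels were taken to mark the same animal in both tissues, which the labels do not state outright. Deviations from the group means correlated between muscle and fat of 1 rat at -0.0077 to 0.021 (8 rats), and between different rats at -0.048 to 0.046. The muscle of 0 of the 8 rats correlated best with its own fat. The consensus correlation within rats by limma was 0.040. The median SE of the interaction was 0.220 with the rat term and 0.205 without it. Named transcripts are ENSRNOT00000032467.4, the 2 with the smallest p among positive and the 1 among negative interactions. Members and lists were chosen with earlier results of these data known. Lists of other tissues needed 1 CPM in the wild-type source. DESeq2's adjustment was set to run over all tested transcripts after its counts with the default filter on the mean had been seen; both are given. Gene lists and marker genes need names (0 of 31715 IDs matched the reference table) and were not used here. No 2 libraries of a group matched (chi-square per degree of freedom 10.8 or more). Floors cover counting error only. The labels give separate rats as replicates.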

Additional observations from a re-analysis of the deposited data

Results flagged for a closer look

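Library measures and the named transcripts were, in each group of 5 libraries, screened for single libraries far from the rest, 36 checks in all, of which chance flags about 1 in 20; 5 were flagged. The muscle of wild-type rat 6 held 1.85 CPM of ENSRNOT00000091115.1, and the other 4 wild-type muscle libraries held 0. On the first 2 principal components the fat of wild-type rat 3 had a mean distance of 74.4 log2 CPM units to the other fat libraries, beside 37.2 to 46.7 in the other wild-type rats. The fat of heterozygous rat 4 held 0.141% of its counts in muscle transcripts, against 0.0176 to 0.0251% in the other heterozygous rats. The fat of heterozygous rat 5 held 0.134% of its counts in liver transcripts, against 0.0330 to 0.0587%, and 0.0316% in hippocampal transcripts, against 0.0360 to 0.0372%. Their part in the results was not tested beyond leaving out each library.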

How the results depend on the processing

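The count of 0 interactions stood in 12 of 18 alternatives beside those that leave out a library. DESeq2's Wald test called 23 with the rat term, also with its filter on the mean, and 41 without the rat term, or 47 with that filter. The fit without the rat term called 1 in the 8 rats with both tissues, which was ENSRNOT00000091115.1, and 2 without the 3 libraries richest in transcripts of the other tissue. Without the replicate block on rat, edgeR called 0 with all libraries, and none of the 4 named transcripts; DESeq2's 41 included ENSRNOT00000045356.3. Leaving out 1 library gave 0 to 1 interactions: 1 transcript without muscle or fat of wild-type rat 4, and another without muscle or fat of heterozygous rat 3, both with a negative interaction. In muscle, DESeq2 called 33 transcripts (40 with its filter), a minimum of 10 counts in every library gave 5, the rat number as a block gave 0, although it marks different rats, and leaving out 1 library gave 1 to 5. The 5 were reached without wild-type rat 2; 3 were called without heterozygous rat 3, and 2 without wild-type rat 3, wild-type rat 4 or heterozygous rat 6. In fat, DESeq2 called 24 (20 with its filter), and leaving out 1 library gave 0 to 1, the 1 without heterozygous rat 4. The interaction of ENSRNOT00000032467.4 lay between -0.40 and -0.20 with single libraries left out and between -0.38 and -0.23 otherwise, with adjusted p-values from 0.588 to 1. In muscle, the median difference of fat-high transcripts was -0.38 with classes at 32-fold, -0.11 at 4-fold, -0.10 by CPM of the library total and 0.13 without wild-type rats 5 and 6. In fat, that of muscle-high transcripts was -0.0033 with classes at 4-fold, 0.14 at 32-fold, 0.12 with classes by CPM of the library total and -0.013 without heterozygous rat 4. The share of fat-high transcripts with an interaction p under 0.05 was 7.95% at 32-fold. The causes were not tested. The interaction with the rat term rested on the 8 rats with both tissues, and its intervals were widest for transcripts of low expression. Its median SE was 0.220, against 0.205 without the rat term.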
